A study of Mus musculus with 3 samples.

Results

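The genes of MHC class II antigen presentation were followed from naive CD4 T cells into 3 polarised cultures. The 10 genes were chosen by name: the chains of the classical molecules I-A and I-E (H2-Aa, H2-Ab1, H2-Eb1 and the related H2-Eb2), the chains of the peptide editor H2-M (H2-DMa and H2-DMb1), the chains of its inhibitor H2-O (H2-Oa and H2-Ob), the invariant chain Cd74 and the class II transactivator Ciita. Their choice was made with earlier results of these data known. The members were represented by 11 of 39429 probes and by 10 of the 19751 genes to which probes were matched. Of the 10 genes, 7 were well above background in both channels of all 3 arrays, as were 10349 of all genes, and every one of the 10 is accounted for in what follows.

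The study used 3 Agilent 2-colour arrays of 60-base probes, read here through 6 channels. Naive CD4 T cell RNA was labelled with Cy3 on every array, and the Cy5 label carried the RNA of 1 culture, either Th2, Th9 or iTreg (T cells induced to a regulatory state). Spleens of C57BL/6 mice 6 to 8 weeks old gave the cells, naive cells were enriched by magnetic sorting on surface markers, and all cultures were held for 3 days on plate-bound antibody to CD3e with soluble antibody to CD28, 10 µg/ml each. To these the Th2 medium added IL-2 at 1 ng/ml, IL-4 at 5 ng/ml and antibody to IFN-gamma at 2 µg/ml. In the Th9 medium IL-2 was at 0.2 ng/ml, IL-4 at 1 ng/ml, human TGF-beta1 at 2 ng/ml and antibody to IFN-gamma at 5 µg/ml. For iTreg cells, IL-2 was at 0.4 ng/ml, human TGF-beta1 at 5 ng/ml, and antibodies to IFN-gamma and to IL-4 at 5 µg/ml each. Every culture therefore differed from naive cells by activation, time in culture and blockade of IFN-gamma as well as by its cytokines. How many mice were pooled, and whether a single naive extract served all arrays, is not given in the labels. Each culture had 1 array, the dyes were not swapped, and the 3 arrays sat on 1 slide, so culture, array position and a gene-specific dye effect cannot be told apart in a ratio against naive. With 1 array per culture no culture can be tested by itself, the cultures are different conditions and were not tested as replicates of each other, and differences are described by size, with at least 2-fold (1 on the log2 scale) as the threshold.

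Peptides for CD4 T cells are displayed by class II molecules, each a dimer of an alpha and a beta chain. New dimers are held by the invariant chain, which is cut by endosomal proteases to a short fragment in the groove. H2-M exchanges that fragment for antigenic peptide, and H2-O restrains H2-M, chiefly in B cells. Transcription depends on the X and Y boxes of the promoters, which bind the RFX, CREB and NF-Y factors, and on CIITA, which docks on them. Dendritic cells, macrophages and B cells make these molecules constitutively. Mouse T cells are known for little synthesis of their own and can also take up class II molecules from other cells. C57BL/6 mice carry a defective H2-Ea gene and so display no I-E at the surface, although H2-Eb1 is intact.

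Promoter sequence of 6 of the genes is shown first, because H2-Eb1 and H2-Eb2, which share an X box core and a Y box, had unlike ratios in the cultures. The sequences are the 150 bases before the annotated start in RefSeq's GRCm38.p6, 5′ to 3′ in the direction of the gene. They lie at chr17:34305717-34305866 (plus strand) for H2-Eb1, chr17:34325525-34325674 (plus) for H2-Eb2, chr17:34153041-34153190 (plus) for H2-DMb1, chr17:34092229-34092378 (plus) for H2-Oa, chr17:34238755-34238904 (plus) for H2-Ob and chr17:34287824-34287973 (minus) for H2-Aa. Capitals mark a Y box (CCAAT or its reverse ATTGG), the X box core (GCAAC, any base, then GATG) or the cyclic AMP response element TGACGTCA.
H2-Eb1: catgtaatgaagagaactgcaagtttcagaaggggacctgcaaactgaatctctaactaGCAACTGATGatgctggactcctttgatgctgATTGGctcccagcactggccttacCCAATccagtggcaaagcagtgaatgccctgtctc
H2-Eb2: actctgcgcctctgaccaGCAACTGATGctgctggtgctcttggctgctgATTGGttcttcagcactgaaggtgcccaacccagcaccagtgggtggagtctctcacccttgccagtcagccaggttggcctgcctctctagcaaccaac
H2-DMb1: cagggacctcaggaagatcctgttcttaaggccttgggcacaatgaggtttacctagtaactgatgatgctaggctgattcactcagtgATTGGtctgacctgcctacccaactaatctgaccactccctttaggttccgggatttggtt
H2-Oa: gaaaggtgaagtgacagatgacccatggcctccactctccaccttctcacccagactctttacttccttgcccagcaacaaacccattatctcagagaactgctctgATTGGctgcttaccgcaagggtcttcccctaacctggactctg
H2-Ob: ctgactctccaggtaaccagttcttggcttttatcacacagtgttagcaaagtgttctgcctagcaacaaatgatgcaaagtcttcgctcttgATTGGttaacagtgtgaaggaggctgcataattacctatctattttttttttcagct
H2-Aa: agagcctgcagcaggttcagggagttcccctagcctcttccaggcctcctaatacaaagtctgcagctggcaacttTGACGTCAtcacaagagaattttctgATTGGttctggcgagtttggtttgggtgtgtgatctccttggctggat
Matches were sought on both strands of the 250 bases before the start in 32851 promoters of all genes. Of the members 7 genes had a promoter in this search, H2-DMa with 2, while H2-Ab1, Cd74 and Ciita had none. A Y box was found in 7 of the 7 genes searched (in 7 of 8 promoters), against 33.8% of all promoters. It lay between 39 and 100 bases before the start in the 6 genes shown, on the reverse strand in each, and H2-Eb1 had another on the forward strand. The longer form CCAATCA (reverse TGATTGG), which contains the Y box and was added after the sequences had been seen, was in 6 of the 7 genes and in 7.23% of all promoters. H2-DMa was the gene without it. The X box core as spelled was in H2-Eb1 and H2-Eb2 and in 0.161% of all promoters. The full cyclic AMP response element was in H2-Aa and in 1.55% of all promoters, and its part TGACG was in the same gene and in 17.8% of all promoters. The gamma-activated site (TTCNNNGAA, N being any base) was in 0 of the 7 genes and in 7.02% of all promoters. These matches describe the letters of the windows and not factor binding.

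On the array labels, the lineage genes stood as follows. The Th2 factor Gata3 had log2 ratios over naive of 1.40, 1.01 and 0.53 in Th2, Th9 and iTreg cells, and Il4 had 5.08 in Th2 and 1.04 in Th9 cells. Il9 was at 6.52 in Th9 cells, above background in the Th2 culture (level 9.17) but not in its naive channel, and not well above background in the iTreg culture. The regulatory T cell factor Foxp3 was at -0.68, 1.28 and 3.49. All 12 T cell markers (CD3 chains, Cd4, Lck and others) were well above background in every channel. Between 48.4% and 50.7% of probes were well above background in the culture channels and between 52.7% and 53.8% in the naive channels. The number of arrays limits the precision, and the ± of a log2 ratio is the scanner's own error estimate for that spot (n = 1 array), which covers error within the array only. It was computed for the scanner's own processed ratio, which can differ from the printed ratio by more than the ±. For H2-DMb1 in Th2 cells the printed ratio was 3.48 ± 0.44 and the scanner's ratio 4.17.

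By role, H2-Ab1, H2-Eb1, H2-DMa, H2-DMb1, H2-Oa and Cd74, were at least 2-fold higher than naive in all 3 cultures, H2-Ob was at or below naive, and H2-Eb2 was higher in iTreg cells and lower in the others. H2-Aa and Ciita were not well above background in any culture. In Th2 cells 6 of 7 measured members were at least 2-fold higher and 1 was lower, where 14.8% of 10945 measured genes were higher and 14.5% lower. In Th9 cells 6 of 8 were higher and 2 lower, against 15.5% and 15.6% of 10782 genes. In iTreg cells 7 of 8 were higher and 0 lower, against 10.2% and 8.15% of 11119 genes. Of the 7 members measured on all arrays 6 were higher in all 3 cultures, against 7.29% of 10349 genes, and 0 were lower in all 3, against 6.02%. The members were chosen with earlier results of these data known, so the counts describe them and do not test them. The median log2 ratio of the measured members was 2.70, 2.56 and 2.04 in Th2, Th9 and iTreg cells, while that of all measured genes was -0.02, -0.01 and -0.02. With median centring of each array in place of loess the median of all genes moved by 0.35, 0.18 and -0.16, and of all genes past 2-fold 77.4%, 65.2% and 40.6% were higher, against 50.5%, 49.8% and 55.7% with loess. The 3 counts of members higher and the 3 counts lower were the same under both. In these bulk samples the number of cells of a type and the RNA per cell cannot be told apart.

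**Figure D1:**
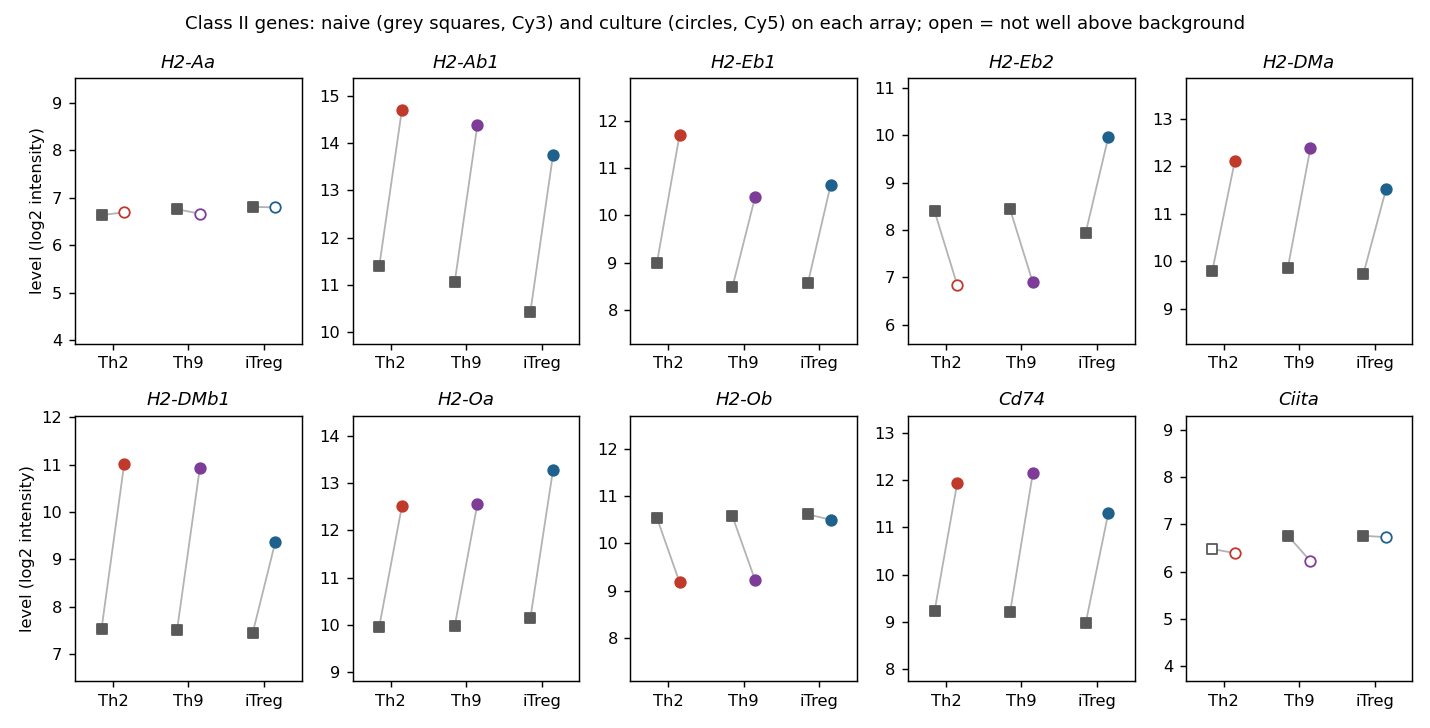
Level (log2 intensity of 1 channel, scaled between arrays) of each of the 10 genes in the naive (squares) and culture (circles) channel of the Th2, Th9 and iTreg arrays, with open symbols for spots not well above background; each panel spans the same number of log2 units. H2-Ab1 falls in parallel in both channels from the Th2 to the iTreg array (14.70 to 13.75 in culture, 11.39 to 10.43 in naive), and H2-Eb2 is high in culture in iTreg cells alone (9.96).

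Among the classical chains, H2-Ab1, the beta chain of I-A, had bright spots in all cultures. They read 2065, 1738.5 and 1150 in the naive channels of the Th2, Th9 and iTreg arrays and 35452, 28236.5 and 15025 in the culture channels. The log2 ratios were 3.31 ± 0.38, 3.32 ± 0.38 and 3.32 ± 0.39, between 9.89-fold and 10.0-fold. Higher ratios were found for 1.31% of measured genes in Th2, 1.46% in Th9 and 0.567% in iTreg cells. The levels behind these nearly equal ratios were not equal. On the log2 scale after scaling between arrays, the culture levels were 14.70, 14.39 and 13.75 and the naive levels 11.39, 11.07 and 10.43, so that both channels were highest on the Th2 array and lowest on the iTreg array.

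By their labels the naive channels hold the same cell type on every array, and for most genes their levels were close: the SD of the naive level over the 3 arrays had a median of 0.048 over 11517 genes. For H2-Ab1 this SD was 0.49, reached or passed by 0.174% of genes, and the range was 0.97, or 1.95-fold. H2-Eb1 and H2-Eb2 (SD 0.27 each) also varied more than most, and 1.62% of genes were at or above H2-Eb1. H2-DMb1 (SD 0.048), H2-Ob (SD 0.036) and H2-DMa (SD 0.063) did not. A range of at least 0.9 in the naive channel, a threshold set after the values were seen, was found for 15 genes measured in all 6 channels. In 15 of 15 the order of the naive levels over the arrays was that of the culture levels in the other channel, against 25.9% of the 10349 genes. They were Batf3, Mt1, Fes, Apol9b, Apol9a, Armcx6, Cdkn1a, Sh2b2, Mcf2l, Tgm2, Tg, Tubb6, H2-Ab1, Bhlhe40 and Ifitm2. Batf3, a transcription factor of activated T cells and dendritic cells, was the extreme, with a naive level that ranged over 2.55, down to 8.58 on the Th9 and 6.75 on the iTreg array, beside culture levels of 12.99, 12.35 and 7.08. Across all 10349 genes the naive difference between the Th2 and iTreg arrays had a Pearson r of 0.31 with the culture difference, a description over genes that share the same spots and arrays. The part of the culture channel in these naive values was not tested. H2-Eb2 ran the other way, with the lowest naive level on the array where the culture level was highest.

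**Figure D2:**
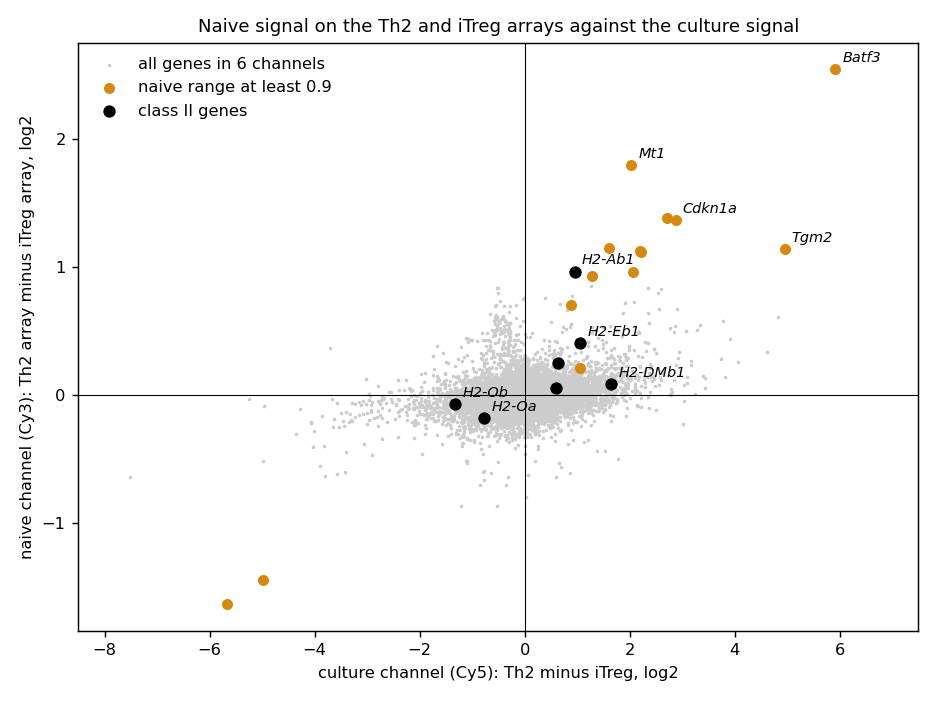
Difference between the Th2 and iTreg arrays in the naive channel (vertical, log2) against the same difference in the culture channel (horizontal, log2) for 10349 genes measured in all 6 channels (grey), with the class II genes in black and the other genes whose naive level ranged over at least 0.9 in orange. H2-Ab1 lies at 0.97 in naive and 0.95 in culture, among genes whose naive level moved in the direction of the culture level.

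Against the mean naive level of the 3 arrays instead of the naive spot on its own array, the H2-Ab1 ratio was 3.74 in Th2, 3.43 in Th9 and 2.79 in iTreg cells. By ratios, iTreg and Th2 cells differed by 0.02 ± 0.54, and by culture level iTreg was 1.93-fold lower, under 2-fold by either measure.

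H2-Eb1, the beta chain of I-E, had naive levels of 8.99, 8.49 and 8.58 and culture levels of 11.70, 10.39 and 10.64 on the Th2, Th9 and iTreg arrays. The culture channels were above all naive channels, and the Th2 culture stood above the other two. The log2 ratios were 2.70 ± 0.34, 1.90 ± 0.28 and 2.06 ± 0.29, or 6.51-fold, 3.73-fold and 4.18-fold. Between Th9 and Th2 cells the ratios differed by -0.80 ± 0.44 and the culture levels by -1.31, so H2-Eb1 passed 2-fold between these cultures by level and not by ratio. The same held for iTreg against Th2 cells, at -0.64 ± 0.45 by ratio and -1.05 by level. With median centring both ratio differences were past 2-fold (-1.10 and -1.29).

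H2-Eb2, a beta chain gene beside H2-Eb1 whose product has no settled role, gave opposite results in different cultures. Naive levels were 8.40, 8.43 and 7.94, and culture levels were 6.84 in Th2 cells, where the spot was not well above background, 6.89 in Th9 and 9.96 in iTreg cells. The Th2 and Th9 cultures were thus below every naive channel and the iTreg culture above all of them. It was at least 2.94-fold lower than naive in Th2 cells, where the bound is the spot's own dim level, 2.91-fold lower in Th9 cells (-1.54 ± 0.32) and 4.06-fold higher in iTreg cells (2.02 ± 0.30). Between iTreg and Th9 cells the ratios differed by 3.56 ± 0.44 and the culture levels by 3.07. Over Th2 cells, the iTreg culture was at least 8.72-fold higher by level (3.12). The promoters printed above for H2-Eb1 and H2-Eb2 both hold the X box core and a Y box.

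H2-Aa, the alpha chain with which the H2-Ab1 product pairs, was weakly above background in the naive channels, at raw signals of 77, 85 and 84 over local backgrounds of 23 to 27, and not well above background in any culture (86, 79 and 88 over 42.5 to 44.5). Levels were 6.64, 6.76 and 6.81 in naive and 6.69, 6.67 and 6.80 in culture, overlapping throughout. A single probe was matched to H2-Aa, so whether another probe would have read the transcript differently was not tested. H2-Ea, H2-Pa and H2-Pb had no matched probe and were not analysed here.

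The invariant chain Cd74 had naive levels of 9.23, 9.21 and 8.98 and culture levels of 11.94, 12.14 and 11.31 on the Th2, Th9 and iTreg arrays. All cultures were above all naive channels, with iTreg cells the lowest of the 3. The log2 ratios were 2.71 ± 0.33, 2.92 ± 0.35 and 2.33 ± 0.31, or 6.53-fold, 7.59-fold and 5.03-fold. No pair of cultures differed by 2-fold in Cd74 with loess, and with median centring in its place the iTreg ratio differed by -1.05 from the Th2 ratio and by -1.05 from the Th9 ratio.

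Of the peptide editor H2-M, H2-DMa had naive levels of 9.79, 9.85 and 9.73 and culture levels of 12.12, 12.39 and 11.52. The ratios were 2.34 ± 0.30, 2.54 ± 0.32 and 1.79 ± 0.26. H2-DMb1, the beta chain, was dim in naive cells at 7.54, 7.52 and 7.45 and stood at 11.02, 10.93 and 9.37 in the cultures. With loess it was the highest of the members by ratio in Th2 cells (3.48 ± 0.44, 11.2-fold) and Th9 cells (3.41 ± 0.44, 10.6-fold). At 1.93 ± 0.33 (3.80-fold) it was among the lower ones in iTreg cells. With median centring H2-Ab1 was above H2-DMb1 in Th2 (4.12 against 3.75) and Th9 cells (3.82 against 3.46). Against the mean naive level H2-Ab1 was also higher in Th2 cells (3.74 against 3.52). The iTreg ratio of H2-DMb1 lay below that of Th2 cells by -1.56 ± 0.55 and below that of Th9 cells by -1.48 ± 0.55, and its culture levels differed by -1.65 and -1.55. Both H2-M chains were thus lowest in the iTreg culture, and the gap was at least 2-fold for H2-DMb1. For H2-DMa it was -0.55 ± 0.40 against Th2 and -0.75 ± 0.42 against Th9 cells, and -1.24 against either with median centring. H2-DMb2, a near copy of H2-DMb1 next to it, was not well above background in naive cells. It was at least 1.85-fold higher in Th2 and 2.06-fold in Th9 cells, and in iTreg cells neither channel was well above background. Cross-hybridisation between the H2-M beta probes, or between other class II genes, was not tested.

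The chains of H2-O stood on opposite sides of naive in Th2 and Th9 cells. H2-Oa had naive levels of 9.96, 9.99 and 10.14 and culture levels of 12.51, 12.57 and 13.28, with ratios of 2.55 ± 0.32, 2.58 ± 0.32 and 3.13 ± 0.37. It was thus between 5.84-fold and 8.78-fold higher, and the iTreg culture had the highest level. H2-Ob had naive levels of 10.54, 10.57 and 10.61 and culture levels of 9.17, 9.22 and 10.50. Its Th2 and Th9 cultures lay well below all naive channels, and the iTreg culture just below them. The ratios were -1.36 ± 0.25, -1.35 ± 0.25 and -0.11 ± 0.20, the last within the scanner error of no difference. Another probe of H2-Ob gave -2.13, -1.87 and -0.56. The H2-Ob level was higher in the iTreg culture by 1.32 than in Th2 and by 1.28 than in Th9 cells, and the ratios differed by 1.25 ± 0.33 and 1.24 ± 0.32. With median centring these fell to 0.67 and 0.87, under 2-fold. H2-Oa differed between iTreg and Th2 cells by 0.59 ± 0.49, a sign that turned with median centring (-0.07).

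Ciita, the transactivator on which class II transcription depends, was not well above background in any culture. The raw culture signals were 66, 59.5 and 87 over backgrounds of 46, 51.5 and 47. In naive cells it was weakly above background on the Th9 and iTreg arrays (levels of 6.76 on both) and not on the Th2 array (6.48). A difference from naive was not detectable at these signals. The other factors at the promoter were described by an enhanceosome list of 8 genes, of which 7 were measured. The list includes Rfx1, which is not among the RFX subunits Rfx5, Rfxank and Rfxap. In each culture 0 of 7 were at least 2-fold higher and 2 lower, the NF-Y subunit Nfyc (-1.96, -2.02 and -1.17 in Th2, Th9 and iTreg) and Rfx1 (-1.11, -1.20 and -1.08). Another probe of Nfyc gave -1.12, -1.08 and -0.66. The RFX subunit Rfxap (0.20, 0.28 and 0.17) and Nfya (0.27, 0.31 and 0.39) were near naive, and the subunit Rfxank was at -0.67, -0.22 and -0.11. Nfyb was at 0.92, 0.21 and 0.51 and Creb1 at -0.38, -0.44 and -0.72, and Rfx5 was not well above background in any channel. Among all measured genes 14.8%, 15.5% and 10.2% were at least 2-fold higher and 14.5%, 15.6% and 8.15% lower in Th2, Th9 and iTreg cells. With median centring 1 of the 7 measured genes of the enhanceosome list was higher and 1 lower in Th2 cells.

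Between cultures, counted by ratios, 0 of 7 members were at least 2-fold higher and 0 lower in Th9 than in Th2 cells (1.28% and 1.38% of all genes). In iTreg against Th2 cells, 1 of 7 was higher (H2-Ob) and 1 lower (H2-DMb1), beside 6.87% and 6.69% of all genes. In iTreg against Th9 cells, 2 of 8 were higher (H2-Eb2 and H2-Ob) and 1 lower (H2-DMb1), beside 6.8% and 6.29%. By culture levels the count lower was 1 of 7 in Th9 against Th2 cells (1.79% of all genes) and 2 of 7 in iTreg against Th2 cells (7.76%), H2-Eb1 being the added gene in each. Higher by level was 1 of 7 in iTreg against Th2 cells (6.74%) and 2 of 8 in iTreg against Th9 cells (6.51%), where 1 of 8 was lower (7.22%), and 0 of 7 in Th9 against Th2 cells (1.55%). With median centring 0 members were higher and 1 lower in Th9 against Th2 cells (0.975% and 2.33% of all genes). In iTreg against Th2 cells 0 were then higher and 4 lower (H2-Eb1, H2-DMa, H2-DMb1 and Cd74), beside 2.28% and 26.8% of all genes. In iTreg against Th9 cells 1 was higher (H2-Eb2) and 3 lower (H2-DMa, H2-DMb1 and Cd74), beside 3.05% and 16.8%. The number of members lower in iTreg cells thus depended on the scaling, as did that of all genes. A gene-specific dye effect cancels in these differences.

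**Figure D3:**
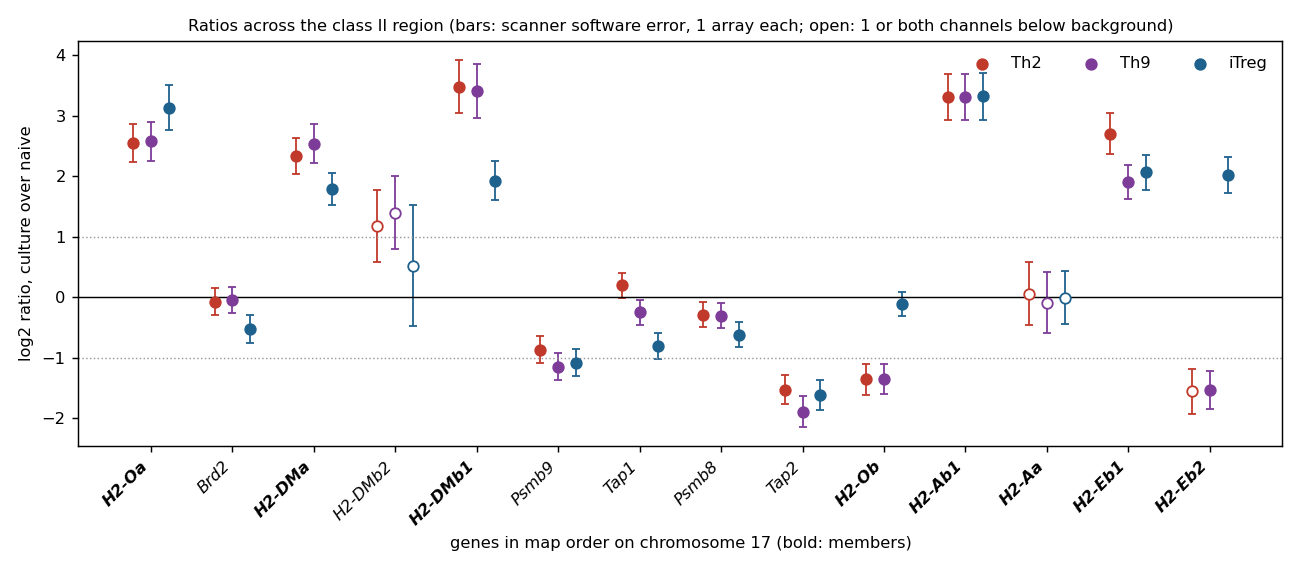
Log2 ratio of culture over naive (vertical, ± the scanner software's error, 1 array each) for the class II region of chromosome 17 in map order, with class II members in bold and open symbols where a channel was not well above background; dotted lines mark 2-fold. The class I genes between the H2-M chains and H2-Ob lie at or below 0.19, flanked by H2-DMa and H2-DMb1 between 1.79 and 3.48 on the one side and by H2-Ob (-1.36, -1.35 and -0.11) on the other, with H2-Ab1 at 3.31 to 3.32 beyond it.

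The members other than Cd74 and Ciita, 8 genes, and the class I processing genes Psmb9, Tap1, Psmb8 and Tap2 neighbour each other on chromosome 17. In map order H2-Oa, at 2.55 to 3.13, was followed by Brd2, a chromatin reader, at -0.07, -0.05 and -0.53. After the H2-M genes came the immunoproteasome subunit Psmb9 (-0.87, -1.15 and -1.09), the peptide transporter subunit Tap1 (0.19, -0.25 and -0.81), Psmb8 (-0.29, -0.31 and -0.62) and Tap2 (-1.53, -1.89 and -1.62). H2-Ob, also lower in Th2 and Th9 cells, came next, and then H2-Ab1. Of the 9 genes on the class I list, 0 were at least 2-fold higher, and 6, 7 and 6 were lower in Th2, Th9 and iTreg cells. Among all measured genes 14.8%, 15.5% and 10.2% were higher and 14.5%, 15.6% and 8.15% lower. Nlrc5, the transactivator of class I genes, was the lowest of the list (-3.48, -4.13 and -3.40, with -0.31 by another probe measured in iTreg cells alone). The class I heavy chain H2-K1 (-2.45, -2.63 and -2.57) and B2m (-1.78, -2.35 and -2.14) were also lower. With median centring 1, 3 and 8 of the 9 were lower and 0 higher, and the list's median went from -1.53, -1.89 and -1.62 to -0.15, -0.98 and -1.50.

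The regulators that act on Ciita were taken from a list of 20. Of 18, 16 and 18 measured, 3, 2 and 2 were at least 2-fold higher and 5, 3 and 5 lower in Th2, Th9 and iTreg cells. Among all measured genes 14.8%, 15.5% and 10.2% were higher and 14.5%, 15.6% and 8.15% lower. With median centring 5, 3 and 2 of the list were higher and 3, 3 and 6 lower. Irf4, a factor of activated lymphocytes, was at 3.87, 3.56 and 3.59, and its relative Irf8 at 1.58, 2.17 and 2.89. Irf1, induced by interferon, was lower at -1.80, -2.14 and -2.23 (another probe, measured on the iTreg array alone, gave 0.09), and so was the kinase Jak1 at -2.44, -2.26 and -1.29. The second chain of the IFN-gamma receptor, Ifngr2, stayed under 2-fold (0.20, 0.88 and 0.31). Il4ra, the IL-4 receptor, was at -0.53, -1.30 and -1.35, and another of its probes at 0.26, -0.37 and -0.35. Spi1 and Pax5, which drive class II genes in myeloid and B cells, were not well above background in any channel.

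Genes of the later steps were mixed. Of 15 endosomal proteases, inhibitors and the reductase, 2, 2 and 1 were at least 2-fold higher and 4, 5 and 4 lower in Th2, Th9 and iTreg cells. Among all measured genes 14.8%, 15.5% and 10.2% were higher and 14.5%, 15.6% and 8.15% lower. With median centring 4, 4 and 1 of the list were higher and 2, 3 and 4 lower. Ctss, the protease that trims the invariant chain in antigen presenting cells, was at -2.26, -1.58 and -0.10. Ctsl, which does so in thymic epithelium, was at 0.57, 0.90 and 0.88. The asparaginyl protease Lgmn was lower in all cultures (-1.63, -2.05 and -1.61), as was the aspartic protease Ctsd (-1.37, -1.46 and -1.30). Another probe of Ctsd gave -0.80, -0.82 and -0.90, under 2-fold in each culture. Ctsz (2.19, 1.76 and 0.91) and the cathepsin inhibitor Cstb (1.44, 1.47 and 1.64) were the highest. The list's median was -0.25, -0.44 and -0.10, and its sign turned in Th2 and Th9 cells with median centring (0.61 and 0.34).

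Of 12 measured genes of class II traffic and turnover, 4, 3 and 2 were at least 2-fold higher and 1, 2 and 0 lower. Among all measured genes 14.8%, 15.5% and 10.2% were higher and 14.5%, 15.6% and 8.15% lower. With median centring 5, 4 and 2 of the list were higher and 0, 1 and 0 lower. Mif, the ligand of surface CD74, was at 2.82, 2.63 and 2.18. Cd44, its co-receptor, was at 2.72, 3.17 and 2.68 by the brighter probe and at -0.14, 0.56 and 1.30 by the other. Cd63, a tetraspanin of class II compartments, was at 2.90, 1.94 and 0.58. Marchf1, the ligase that sends surface class II to degradation, was at -0.94, -1.03 and 0.07, and the tetraspanin Cd9 at -1.08, -1.53 and 0.28. Cd37, another tetraspanin, was at -0.65, -0.75 and -0.32. Like H2-Ob and H2-Eb2, Marchf1 and Cd9 were near or above naive in iTreg cells and lower in Th9 cells. So were Ctss, Cd28, Siglech, Itgam and Cd3d, and with loess the pattern was thus not particular to class II genes. With median centring Marchf1 and Cd9 were not both past 2-fold lower in Th9 cells. T cell markers past 2-fold lower there then went from 9 to 1, and dendritic cell markers from 1 (Siglech) to 0. H2-Ob (-1.26) and H2-Eb2 (-1.56) stayed past 2-fold lower in Th9 cells.

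Receptors and costimulators numbered 8, 7 and 7 measured genes, of which 3 were higher in each culture and 1, 1 and 0 lower. Among all measured genes 14.8%, 15.5% and 10.2% were higher and 14.5%, 15.6% and 8.15% lower. With median centring 4, 3 and 3 of the list were higher and 1, 0 and 0 lower. Lag3, a class II receptor of T cells, was at 3.91, 3.46 and 2.39, Ctla4 at 3.28, 4.18 and 3.52 and Pdcd1lg2 at 2.03, 1.23 and 2.07. Cd4 itself was at -0.62, -0.47 and -0.35, and another Cd4 probe at 0.40, 0.43 and -0.01. Cd28, the costimulatory receptor, was at -0.69, -1.20 and -0.01, and its ligand Cd80 at -0.68, -0.46 and 0.66. Cd86, a costimulator of antigen presenting cells, was above background in naive cells alone. Cd40 was above background in the Th9 and iTreg cultures alone.

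**Figure D4:**
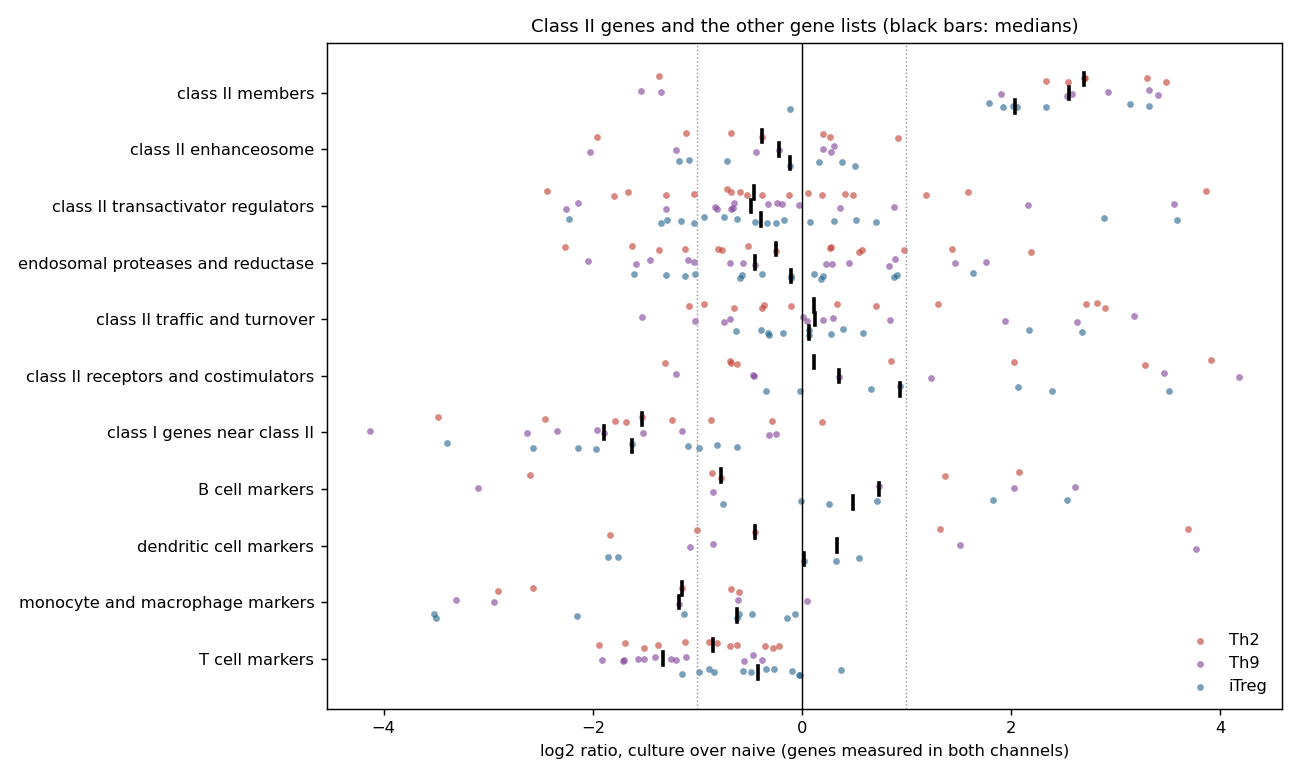
Log2 ratio of culture over naive for the class II genes and the other gene lists, each point a gene measured in both channels (Th2 red, Th9 purple, iTreg blue) and each black bar the list's median; dotted lines mark 2-fold. The class II medians of 2.70, 2.56 and 2.04 lie past 2-fold, and the class I medians of -1.53, -1.89 and -1.62 lie past it in the other direction, where with median centring in place of loess they were -0.15, -0.98 and -1.50.

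Markers of cells that carry class II constitutively were measured in the same channels. Of 18 matched B cell markers, 8, 9 and 8 were not well above background in either channel of the Th2, Th9 and iTreg arrays. The defining markers Cd79a, Ms4a1 and Pax5 were below it in all 6 channels. Others were above it in culture alone: Spib in all 3 cultures, Ebf1 in Th2 and Th9 cells and Vpreb3 in iTreg cells, the last with a bound past 2-fold. In naive alone, Blnk was above it on all 3 arrays, Bank1 on the Th2 and Th9 arrays and Cr2 on the Th2 array. Of the 5, 5 and 6 measured, 2 were higher in each culture and 1, 1 and 0 lower. Among all measured genes 14.8%, 15.5% and 10.2% were higher and 14.5%, 15.6% and 8.15% lower. With median centring 2, 2 and 2 of the list were higher and 1, 1 and 1 lower. Cd79b, a B cell receptor component, was at 2.08, 2.03 and 1.83, and Cd72 at -0.86, 0.74 and 2.54. Tnfrsf13c was at 1.37 and 2.61 in Th2 and Th9 cells and at least 1.70 in iTreg cells, and the coactivator Pou2af1 at -2.60, -3.10 and -0.75. Cd22, an inhibitory B cell receptor, was at -0.77, -0.85 and -0.01. The summed level of the list (log2 of the summed intensity) was 12.00 to 12.12 in naive and 12.18, 12.48 and 13.38 in Th2, Th9 and iTreg cultures. The sum adds different probes, and Cd72 alone made up 52.2% of it in the iTreg culture.

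Of 13 matched dendritic cell markers, Clec9a, Xcr1, Cd209a, Clec10a and Ccl22 were not well above background in any channel. Ccl17 and Fscn1 were above it in culture alone, on all 3 arrays (Fscn1 by at least 1.22 in Th9 cells). Flt3 was above it in naive alone, on all 3 arrays. Of the 5, 4 and 5 measured, 2, 2 and 0 were higher and 2, 1 and 2 lower. For this and the next lists, 14.8%, 15.5% and 10.2% of all measured genes were higher and 14.5%, 15.6% and 8.15% lower. With median centring 2, 2 and 0 of the dendritic cell list were higher and 1, 0 and 2 lower. The list's median in Th2 cells then went from -0.45 to 0.36. Batf3 was at 3.69, 3.78 and 0.33, and Tcf4, a factor of plasmacytoid dendritic cells, at 1.33, 1.52 and 0.55, while Siglech was just past 2-fold lower in Th2 cells and at -1.07 and 0.02 in Th9 and iTreg cells, and Bst2 was at -0.45, -0.85 and -1.76. The integrin Itgax was at -1.83 in Th2 and -1.85 in iTreg cells and at least 1.98 below naive in Th9 cells. Their summed level was 15.58 to 15.90 in naive and 15.10 to 15.43 in culture, of which Siglech made up between 63.5% and 92.2%. Of 15 matched monocyte and macrophage markers, 5, 5 and 9 were measured, of which 0 were at least 2-fold higher in any culture and 3, 3 and 4 lower. Another 8, 9 and 3 were above background in naive cells alone, such as Lyz1, a lysozyme, at least 2.48 and 2.71 lower on the log2 scale in Th2 and Th9 cells. Tyrobp (-2.91, -3.31 and -3.52) and Fcer1g (-2.57, -2.95 and -3.50), which natural killer cells also express, were the lowest. With median centring 0 of the monocyte and macrophage list were higher and 2, 2 and 4 lower. Csf1r, the macrophage growth factor receptor, was at -0.60, -0.61 and -0.60, and another of its probes at -1.10, -1.02 and -0.28. The integrin Itgam was at -1.15, -1.18 and -0.14, and at -0.76 in iTreg cells by another probe. The summed level was 14.59 to 14.73 in naive and 13.22 to 14.23 in culture, with 64.3% to 87.0% from Itgam. Of 12 T cell markers, 0 were higher and 5, 9 and 1 lower, among them Cd3e (-1.94, -1.91 and -0.89), Cd3g (-1.51, -1.70 and -0.48) and the adaptor Lat (-1.69, -1.51 and -0.84), and with median centring 3, 0 and 0 were higher and 0, 1 and 1 lower. Cd2 (-0.35, -0.55 and -0.03) and the kinase Zap70 (-0.28, -0.39 and 0.37) were under 2-fold in each culture. The part of other cell types in the class II values was not tested.

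The genes most like the class II members were sought by the Euclidean distance of their 3 log2 ratios to the median of the 7 members measured on all arrays (2.70, 2.58 and 2.06). The nearest 5 of all genes were the linker histone H1f4 (2.68, 2.62 and 2.16, distance 0.103), the glucose-6-phosphate transporter Slc37a4 (0.121), the mitochondrial ribosomal protein Mrpl45 (0.146), the sterol synthesis enzyme Hmgcs1 (0.149) and the hydrolase Nudt2 (0.165). Likeness over 3 arrays describes these ratios alone.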

How the data were processed

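RNA of naive (Cy3) and polarised (Cy5) CD4 T cells was measured on 3 arrays, 1 per culture. Per the file headers, the authors' scanner output gives the intensity of each spot and of its background from Agilent Feature Extraction 11.0.1.1 (version 9.3.2.1 in the submitters' processing notes), a log10 ratio with its error, and a p-value of the software's error model. Neither that p-value nor the deposited log10 ratio entered the main values, but the log10 error, turned to log2, is the ± of the text. The authors' deposited series values were found to be log2 of processed Cy5 over processed Cy3 signal, shifted on each array by a constant of 0.056 (Th2), 0.021 (Th9) or 0.037 (iTreg). Within 0.001 this was so for 99.6% of probes or more on each array, column medians were 0.138, 0.259 and 0.283, and what the constant stands for is unknown.

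Median intensities were corrected by normexp (offset 50) and loess within arrays, with control and outlier spots at weight 0, and levels per channel were scaled by Aquantile (limma 3.58.1 in R 4.3.3, files read with version 1.17.8 of data.table). Outlier spots were then dropped and spots of a probe averaged. Further steps used Python 3.11.15, pandas 2.3.3, numpy 2.4.6 and matplotlib 3.10.9. Of 39429 probes 26055 were matched by RefSeq accession to GRCm38.p6 names. The array design names mm9, so no coordinates of probes are given. The brightest probe stood for its gene. A gene was measured where both channels were well above background. Where 1 channel was not, the bound ("at least") is the bright level less the higher of the dim spot's own level and the lowest level well above background in that channel. Errors of differences are roots of summed squares.

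With 1 array per culture no p-value is given. The calculation was tested on simulated data, in which known changes, as many up as down, were set on the naive channel of each array. Such data could not test how the results depend on the scaling. The members and lists were chosen with earlier results of these data known. Genes named are the members, the 3 highest and 3 lowest of each list by mean ratio, markers of other cells at least 2-fold higher, and the 5 nearest genes. Others (lineage genes, Rfxank, genes with a varying naive level, and single genes below background or near the class II genes) were chosen after their values were seen. Alternatives were median centring, normexp offset 16, no background correction, processed signals, series values, all probes, no dim filter and, added after seeing the data, the mean naive level and direct differences of culture levels.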

Additional observations from a re-analysis of the deposited data

Results flagged for a closer look

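H2-Eb2 differed between cultures in direction. It was below naive in Th2 and Th9 cells and above naive in iTreg cells, with a difference of 3.56 in log2 ratio between iTreg and Th9 cells and of at least 3.12 in culture level between iTreg and Th2 cells. With 1 array per culture the difference was not tested.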

How the results depend on the processing

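No paired analysis was possible because each culture had 1 array, and for the same reason none could be left out in turn. Of 382 alternative values of the members' ratios and differences, 336 moved by less than the scanner error, 46 moved further and 0 changed sign while past 2-fold. Some of the 336 could not move. Lifting the dim filter leaves measured values as they are, and averaging all probes can change only H2-Ob, the member with another probe. For differences between cultures, the mean naive level and direct culture levels give the same value, and both settings were counted. Of 48 alternative counts of members against naive 47 stayed within 1.5 times, and the number lower in Th2 cells went from 1 to 2 with no filter on dim spots, since H2-Eb2 was then counted. Of 54 alternative counts of members between cultures 10 moved. With median centring the number higher went from 1 to 0 (iTreg against Th2) and from 2 to 1 (iTreg against Th9), and the number lower from 0 to 1 (Th9 against Th2), from 1 to 4 (iTreg against Th2) and from 1 to 3 (iTreg against Th9). By culture levels or with the mean naive level the number lower went from 0 to 1 (Th9 against Th2) and from 1 to 2 (iTreg against Th2). With no filter on dim spots the number higher in iTreg against Th2 cells went from 1 to 2. Over all settings H2-Ab1 ranged from 3.31 to 4.12 in Th2 and from 2.79 to 3.56 in iTreg cells, H2-DMb1 from 1.69 to 2.73 in iTreg cells, and H2-Eb2 from -2.39 to -1.36 in Th9 and from 1.71 to 2.46 in iTreg cells. Of 792 alternative list values 94 moved. The cause was not tested. H2-Aa and Ciita had signals too near background for a ratio.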
